A study of Mus musculus with 3 samples.

Results

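The genes that bring pyruvate into the mitochondrion and run the tricarboxylic acid (TCA) cycle were followed in stable BCR::ABL1+ cell lines with kinase inactive CDK6. The set of 34 genes was given by symbol and role in the pathway, by a rule that uses no measured value though it was written with earlier results of these data known, and all 34 were found among the 50686 genes of the count table. Succinate dehydrogenase, which is also part of the respiratory chain, is not in the set. The cells are bone marrow cells of C57BL/6 mice labelled Pre/Pro-B-cells that are homozygous for CDK6-K43M, a mutant without kinase activity, and that grew out as permanent lines after retroviral transduction with BCR-ABL(p185). All 3 lines carry both the oncogene and the mutation and no treatment is given in their labels, which also do not say whether the lines came from separate mice. The study set these lines against wildtype and CDK6 knockout lines, which were not analysed here. What follows is therefore the order of the genes and the differences between lines within 1 genotype.

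Pyruvate, the end product of glycolysis, crosses the inner mitochondrial membrane through a carrier and is oxidised to acetyl-CoA by the pyruvate dehydrogenase complex, which kinases switch off and phosphatases switch on again. Citrate synthase joins acetyl-CoA to oxaloacetate, and the dehydrogenases of the cycle then pass electrons to NADH for the respiratory chain. In dividing cells the cycle also feeds synthesis, since citrate leaves for lipid production, and pyruvate carboxylase, glutamate dehydrogenase and the aminotransferases refill or drain its intermediates.

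Libraries held from 19633463 to 25773221 counts on genes. Levels are given as CPM, counts per 1000000 counts of the library after TMM scaling with edgeR, and a limit of 3 counts, which a count of 0 allows, lay between 0.118 and 0.152 CPM. Of 12 B precursor markers 11 reached at least 1 CPM in each line, with a summed level from 3870 to 4394 CPM. The markers of myeloid cells summed to at most 3.93 CPM in a line, those of T and NK cells to at most 1.02 CPM and those of erythroid cells and megakaryocytes to at most 1.17 CPM, and 4 of 4 stromal markers had no count. *Cebpa*, *Elane*, *Cd3e*, *Cd3g*, *Cd8a*, *Ncr1*, *Hba-a1*, *Hbb-bs* and *Pf4* were at 0 in all 3 lines. *Cdk6* itself was present at 449.5, 334 and 239 CPM in lines 1, 2 and 3, which does not show whether the RNA carries the mutation.

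The genes of the pathway together took 0.650%, 0.607% and 0.722% of all counts in lines 1, 2 and 3, a mean of 0.660% ± 0.0584 (SD, n = 3). Of the 34 genes, 32 had at least 10 counts over the lines and also reached 1 CPM in each line. The other two, *Pdk2* and *Pdk4*, were at or near 0. In RNA of whole cultures, fewer cells that transcribe a gene and less RNA per cell cannot be told apart.

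**Figure D1:**
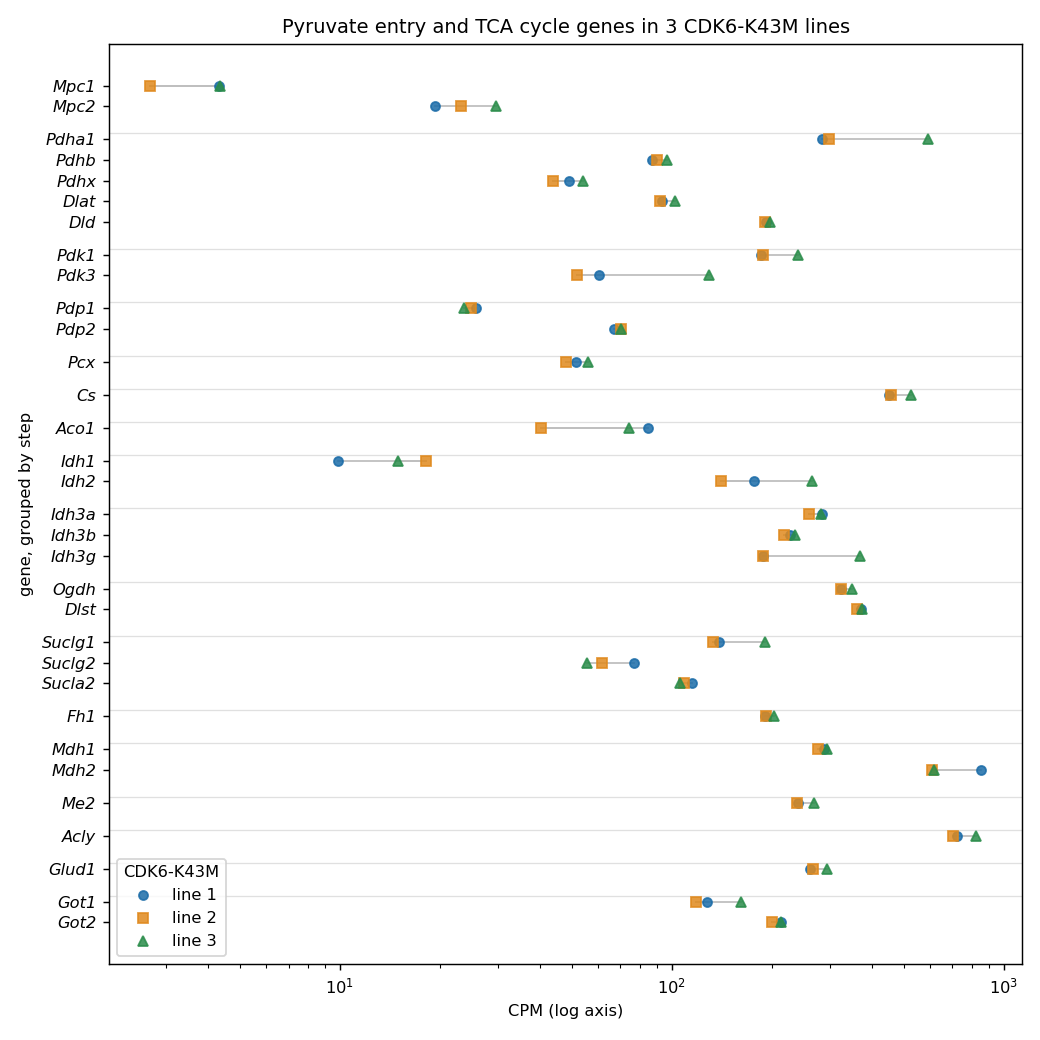
Level of each of 32 genes in CPM on a log axis, grouped by step from pyruvate uptake (top) to the aspartate aminotransferases (bottom), with 1 symbol for each CDK6-K43M line. The symbols of many genes lie on top of each other, while *Pdha1*, *Pdk3* and *Idh3g* stand apart in line 3, *Aco1* in line 2 and *Mdh2* in line 1, and *Idh2*, *Idh1*, *Mpc2*, *Mpc1* and *Suclg1* are also spread; *Pdk2* and *Pdk4*, at or near 0 counts, are not drawn.

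The order of the genes was read per kilobase of merged exons, since longer transcripts give more reads. On this scale *Mdh2*, the mitochondrial malate dehydrogenase, was highest with 195 ± 39.0 CPM per kilobase, followed by *Acly*, the cytosolic ATP citrate lyase that makes acetyl-CoA for lipids, with 142 ± 12.6, and *Mdh1*, the cytosolic malate dehydrogenase, with 111 ± 3.44 (SD, n = 3 each). The lowest of the 32 were the pyruvate carrier genes *Mpc2* and *Mpc1* with 3.27 ± 0.697 and 1.82 ± 0.460 CPM per kilobase. Of 31 pairs of neighbours in this order, 11 had values that did not overlap between the lines, so most neighbours in the order are not separated beyond the spread of the lines. The values of *Mdh2* did not overlap those of any other gene of the set, whereas line 3 of *Pdha1* reached 159 CPM per kilobase, above all values of *Acly*. The length matters for this order. With the length of the transcript that has the longest coding sequence, *Mdh2* stayed first, but the places behind it changed. *Idh3g* moved from rank 5 to rank 2, *Acly* from rank 2 to rank 3 and *Mdh1* from rank 3 to rank 7. Ranks use the mean of the lines, and the mean of *Idh3g* is raised by line 3. It had 369 CPM there, against 189 and 188 CPM in lines 1 and 2. *Dlst* moved from rank 16 to rank 8 and *Mpc2* from rank 31 to rank 24.

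The mitochondrial pyruvate carrier is a dimer of MPC1 and MPC2. *Mpc1* had 4.33, 2.68 and 4.36 CPM in lines 1, 2 and 3, from 94, 53 and 111 counts. *Mpc2* had 19.3, 23.2 and 29.5 CPM, so every line was above every value of *Mpc1*, and per kilobase of merged exons the ratio of *Mpc2* to *Mpc1* was 1.88 ± 0.590 (SD, n = 3). This ratio depends on the length used and had a mean of 6.21 with the transcript length. The count of *Mpc1* is uncertain, since 29.6% of the stretches of 50 bases in its main transcript also occur in other annotated genes, led by the pseudogene *Mpc1-ps*, and 23.1% of its exon bases lie under exons of other genes. *Mpc2* shares no such stretch.

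The pyruvate dehydrogenase complex is built from E1 (alpha subunit *Pdha1*, beta subunit *Pdhb*), E2 (*Dlat*), the E3 binding protein (*Pdhx*) and E3 (*Dld*), which also serves the 2-oxoglutarate dehydrogenase complex. *Pdha1* had 283, 297 and 592 CPM in lines 1, 2 and 3, with line 3 far above the others. Its partner *Pdhb* had 86.9, 90.1 and 96.6 CPM and stayed close between lines. The ratio of *Pdha1* to *Pdhb* per kilobase was therefore 3.37 and 3.41 in lines 1 and 2 and 6.34 in line 3. Its mean of 4.37 became 2.25 with the transcript length, which scales all lines alike. The E2 gene *Dlat* had 93.2, 92.1 and 102 CPM, *Pdhx* 48.9, 44.0 and 53.9 CPM and *Dld* 192, 190 and 198 CPM. *Dld* was the only one of the 5 that did not differ between lines beyond counting noise (chi-square test of homogeneity with Benjamini-Hochberg adjustment over all genes tested, adjusted p = 0.181). This test compares libraries and not conditions. *Pdhb* and *Pdha1* share 30.3% and 16.9% of their 50-base stretches with other annotated genes, *Pdhb* with the pseudogene *Gm6123* and *Pdha1* with the overlapping gene *Map3k15*. Those genes were at 0.0715 and 0.473 CPM on average.

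Pyruvate dehydrogenase kinases phosphorylate and inactivate E1. Of the 4 kinases, *Pdk1* and *Pdk3* were expressed and *Pdk2* and *Pdk4* were not detectable or nearly so. *Pdk1*, a kinase known to be induced by hypoxia, had 186, 188 and 240 CPM in lines 1, 2 and 3. *Pdk3* had 60.4, 51.8 and 129 CPM. Per kilobase the kinases were close, with a ratio of *Pdk1* to *Pdk3* of 1.01 and 1.19 in lines 1 and 2, whereas in line 3 it was 0.611 and *Pdk3* was the higher one. *Pdk2* had 0, 7 and 2 counts, and the 7 counts of line 2 correspond to 0.355 CPM with an exact 95% Poisson interval from 0.143 to 0.731 CPM, which covers counting error only. *Pdk4*, the kinase known to respond to fasting, had 0 counts in each line, which allows up to 0.138, 0.152 and 0.118 CPM.

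The summed CPM of the phosphatases that reactivate E1 varied least of all steps of the pathway, with a coefficient of variation of 1.24%. Taken singly, *Pdp1* had 4.13% and *Pdp2* 2.51%, above the 2.09% of *Dld* and the 1.82% of *Dlst*. *Pdp1* had 25.7, 24.9 and 23.6 CPM in lines 1, 2 and 3 and *Pdp2* had 67.2, 70.3 and 70.1 CPM. Neither differed between lines beyond counting noise (chi-square test, adjusted p = 0.427 and 0.448). *Pcx*, the carboxylase that turns pyruvate into oxaloacetate, had 51.4, 48.1 and 55.8 CPM.

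Citrate synthase, *Cs*, had 451, 457 and 524 CPM, with line 3 highest. *Aco1*, the cytosolic aconitase that also acts as iron regulatory protein when it lacks its iron-sulfur cluster, had 84.5, 40.5 and 74.2 CPM, a level in line 2 well below that of the other lines.

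Isocitrate is oxidised by 2 kinds of enzyme. The NAD-dependent enzyme of the cycle is a complex of *Idh3a*, *Idh3b* and *Idh3g*, which had 283, 260 and 281 CPM, 226, 218 and 235 CPM and 189, 188 and 369 CPM in lines 1, 2 and 3. The gamma subunit thus stood at 1.25, 1.36 and 2.47 times the catalytic alpha subunit per kilobase, while the ratio of beta to alpha stayed at 1.22 ± 0.0331 (SD, n = 3). Of the NADP-dependent enzymes, *Idh2* in the mitochondrion had 177, 141 and 264 CPM and *Idh1* in the cytosol 9.86, 18.1 and 15.0 CPM. *Idh2* was above *Idh1* in every line, by 19.3, 8.30 and 18.9 times per kilobase. The lines did not rank alike, since line 2 was lowest for *Idh2* and highest for *Idh1*.

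*Ogdh* and *Dlst*, E1 and E2 of the 2-oxoglutarate dehydrogenase complex, had 323, 323 and 349 CPM and 373, 361 and 374 CPM, and *Dlst* did not differ between lines beyond counting noise (chi-square test, adjusted p = 0.106). In succinyl-CoA ligase the alpha subunit *Suclg1* pairs with either *Sucla2*, which makes ATP, or *Suclg2*, which makes GTP. *Suclg1* had 138, 133 and 191 CPM, highest in line 3. *Suclg2* had 76.8, 61.4 and 55.7 CPM and *Sucla2* 115, 109 and 106 CPM, both lowest in line 3. *Sucla2* exceeded *Suclg2* per kilobase 2.00 ± 0.237 times (SD, n = 3), with 21.8% of the 50-base stretches of *Suclg2* shared with the pseudogene *Gm15163*.

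Fumarase, *Fh1*, had 191, 192 and 203 CPM in lines 1, 2 and 3. *Mdh2* had 854, 609 and 617 CPM, and here line 1 stood apart. *Mdh1* had 286, 276 and 294 CPM, so the ratio of *Mdh2* to *Mdh1* per kilobase was 2.15 in line 1 against 1.59 and 1.51 in lines 2 and 3. Its mean of 1.75 became 3.54 with the transcript length.

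At the exits and entries of the cycle, *Acly* had 723, 703 and 827 CPM, *Me2*, the mitochondrial malic enzyme, 239.7, 238 and 268 CPM and *Glud1*, glutamate dehydrogenase, 260.2, 266 and 293 CPM. All 3 were highest in line 3. The aspartate aminotransferases *Got1* (cytosol) and *Got2* (mitochondrion) had 128, 119 and 162 CPM and 213, 200.1 and 214 CPM. *Got1* was highest in line 3, and *Got2* shares 47.2% of its stretches with other annotated genes, more than any other gene of the set.

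**Figure D2:**
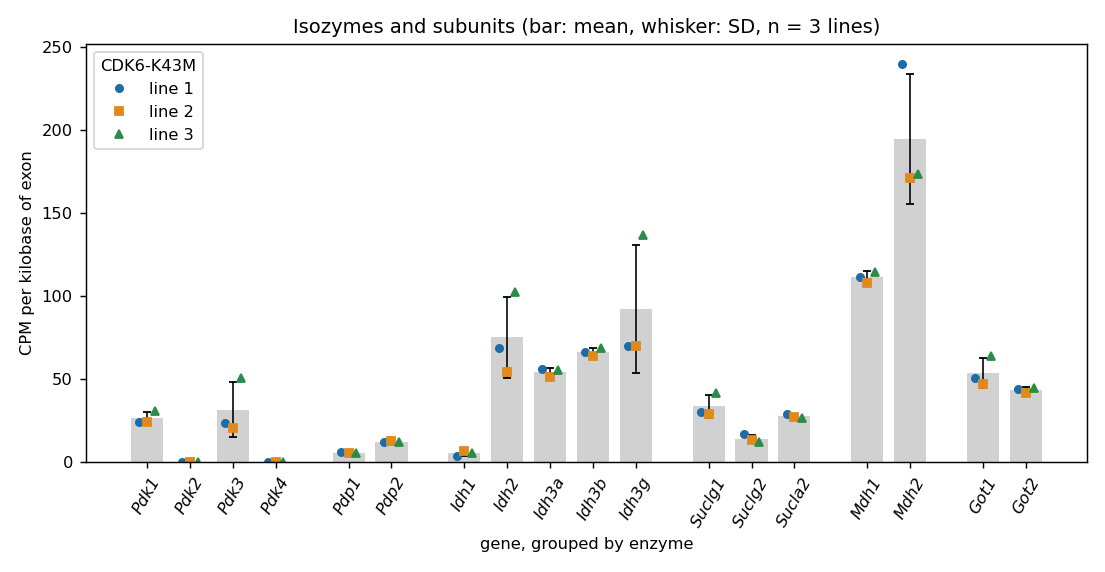
Level in CPM per kilobase of merged exons for isozymes and subunits of 6 enzymes, with bars for the mean, whiskers for the SD over 3 CDK6-K43M lines and 1 symbol per line. *Pdk1* and *Pdk3* carry the kinase signal while *Pdk2* and *Pdk4* sit at 0 or near it, *Idh2* is above *Idh1* in each line, and the spread of *Idh3g* and *Pdk3* comes from line 3.

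Of the 32 genes with enough counts, 28 differed between the 3 lines beyond counting noise, against 66.8% of the 13974 genes tested. The share depends on depth, because more counts make smaller differences visible: among genes with a mean of at least 10 CPM, 27 of 31 genes of the pathway differed, against 81.2% of 8528 genes. Most of these differences were small. The range between the highest and the lowest line, on the scale of log2(CPM + 1), had a median of 0.21 for the 32 genes, 0.32 for all genes tested and 0.28 for genes with a mean of at least 10 CPM. Without line 3, 14 of the 32 genes still differed, against 47.1% of 12948 genes. Without line 1 the count was 26, against 54.3%, and without line 2 it was 21, against 54.5%. These shares without a line are over all genes tested. The shares of the better covered genes were not computed for them, so depth is not matched in these comparisons. *Sucla2*, with an adjusted p of 0.0139 in the chi-square test, was among the genes whose call was lost without line 3 and also without line 1. The calls of *Idh3g*, *Pdk1*, *Cs* and *Suclg1* were lost without line 3 too, and that of *Mdh2* without line 1.

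A range of at least 1, a doubling, was reached by 3 of the 32 genes, *Pdha1* (1.06), *Pdk3* (1.30) and *Aco1* (1.04), against 10.9% of all genes tested (7.41% of the 8528 better covered ones). *Idh3g* lay just under it with 0.97 and *Idh2* followed with 0.91. The highest line was 2.09 times the lowest for *Pdha1*, 2.49 times for *Pdk3*, 2.09 times for *Aco1*, 1.96 times for *Idh3g* and 1.88 times for *Idh2*. Without line 3 only *Aco1* had such a range, against 4.79% of all genes, and without line 1 only *Pdk3* did, against 7.22%. Without line 2 the genes with such a range were *Pdha1* and *Pdk3*, against 7.34%.

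**Figure D3:**
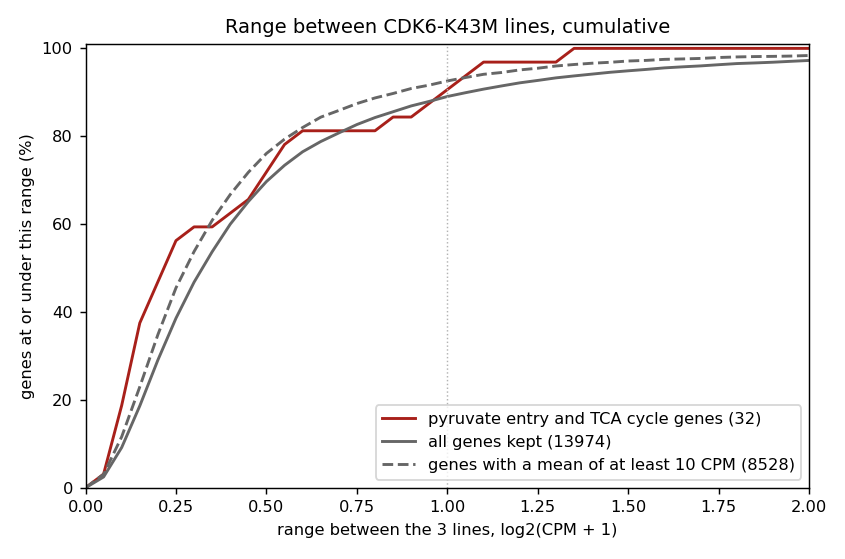
Cumulative share of genes (vertical axis, %) at or under a given range between the 3 lines on the scale of log2(CPM + 1) (horizontal axis), for the 32 genes of the pathway, all 13974 genes tested and the 8528 genes with a mean of at least 10 CPM. The curve of the pathway genes is above both others up to a range of 0.3, with 46.9% at or under 0.2 against 29.1% of all genes. From 0.35 to 1, marked by the dotted line, it is below the curve of the better covered genes. At or under 0.8 lie 81.2% of the pathway genes, 84.3% of all genes and 88.7% of the better covered ones.

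Beside the few large differences there was a small one across most of the pathway. Line 3 lay above the mean of lines 1 and 2 for 28 of 32 genes, against 50.5% of all genes tested, and the median difference was 0.15 on the log2 scale, against 0.0038 for all genes. Line 3 was the highest line for 24 of 32, against 37.0% of all genes, and line 2 the lowest for 19 of 32, against 30.5%. The genes below the mean of the others in line 3 were *Pdp1*, *Suclg2*, *Sucla2* and *Mdh2*. Without the 3 genes on the X chromosome the count was 25 of 29 and the median 0.14. With DESeq2 size factors or library size alone, line 3 was above the mean of the others for the same number, 28, with medians of 0.15 and 0.13, and was the highest line for 21 in both, while line 2 was the lowest for 21 and 19. The genes share pathways and libraries and are not independent of each other, and the difference rests on 1 line.

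The 3 genes with the largest differences in line 3 are all on the X chromosome of GRCm38 (mm10). *Pdha1* (ENSMUSG00000031299.10) lies from 160122209 to 160138413, *Pdk3* (ENSMUSG00000035232.8) from 93764607 to 93832201 and *Idh3g* (ENSMUSG00000002010.17) from 73778963 to 73786897, each on the minus strand. They encode unlike parts of the pathway, namely a subunit of the complex, its kinase and a regulatory subunit of a cycle enzyme. *Pdha1* was above the mean of the other lines by 1.03 on the log2 scale in line 3, *Pdk3* by 1.19 and *Idh3g* by 0.97. Other genes that start within 5 Mb were shifted too, by a median of 0.94 over 23 genes around *Pdha1*, 0.88 over 14 genes around *Pdk3* and 0.95 over 53 genes around *Idh3g*. The part of the neighbourhood in these values was not tested. The 5′ ends of the 3 genes are printed because the genes moved together, as RefSeq promoter windows from 250 bases before to 50 bases after the start in GRCm38.p6, 5′ to 3′ on the minus strand. Capitals mark GGGCGG and CCAAT, on either strand, the letters known for SP1 and NFY. *Pdk3* holds GGGCGG on both strands and 1 CCAAT, and the windows of *Pdha1* and *Idh3g* hold none of the letters searched.
Pdha1, chrX:160138381-160138680: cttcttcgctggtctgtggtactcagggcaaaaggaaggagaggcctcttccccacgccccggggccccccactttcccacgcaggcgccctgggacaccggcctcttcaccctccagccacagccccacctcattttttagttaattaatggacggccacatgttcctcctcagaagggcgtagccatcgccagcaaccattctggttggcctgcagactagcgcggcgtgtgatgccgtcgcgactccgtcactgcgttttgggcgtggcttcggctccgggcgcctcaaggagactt
Pdk3, chrX:93832101-93832400: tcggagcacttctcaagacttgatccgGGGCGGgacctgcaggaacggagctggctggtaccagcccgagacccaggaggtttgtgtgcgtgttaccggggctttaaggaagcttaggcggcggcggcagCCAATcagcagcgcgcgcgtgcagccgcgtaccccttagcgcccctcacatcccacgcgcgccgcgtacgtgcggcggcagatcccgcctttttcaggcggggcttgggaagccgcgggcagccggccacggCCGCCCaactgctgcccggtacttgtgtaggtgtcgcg
Idh3g, chrX:73786848-73787147: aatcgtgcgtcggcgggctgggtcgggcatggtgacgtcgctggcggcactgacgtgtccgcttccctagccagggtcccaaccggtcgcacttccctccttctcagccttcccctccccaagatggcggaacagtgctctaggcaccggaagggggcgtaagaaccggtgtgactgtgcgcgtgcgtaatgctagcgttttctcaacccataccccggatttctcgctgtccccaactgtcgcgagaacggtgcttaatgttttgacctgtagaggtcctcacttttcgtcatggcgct

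*Mdh2* (ENSMUSG00000019179.10, chromosome 5, 135778480 to 135790398, plus strand) was above the mean of the other lines by 0.48 in line 1, and 90 genes within 5 Mb had a median of 0.38 in this line, with the same sign for 95.6% of them. *Cdk6* lies on the same chromosome and was also highest in line 1. In lines 2 and 3, *Cdk6* had 334 and 239 CPM, whereas *Mdh2* had 609 and 617 CPM. A link between *Cdk6* and *Mdh2* was not tested. For the other large differences the neighbours were not shifted alike. *Aco1* (ENSMUSG00000028405.9, chromosome 4, 40143081 to 40198338) differed from the mean of the others by -0.95 in line 2, while its 51 neighbours had a median of 0.0046. *Idh2* (ENSMUSG00000030541.16, chromosome 7, 80094846 to 80115392) was above by 0.74 in line 3, with 0.07 for 52 neighbours, and *Idh1* (ENSMUSG00000025950.16, chromosome 1, 65158616 to 65186500) differed by -0.69 in line 1, with 0.05 for 23 neighbours. *Suclg1* on chromosome 6 was above by 0.49 in line 3, with 0.07 for 26 neighbours.

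**Figure D4:**
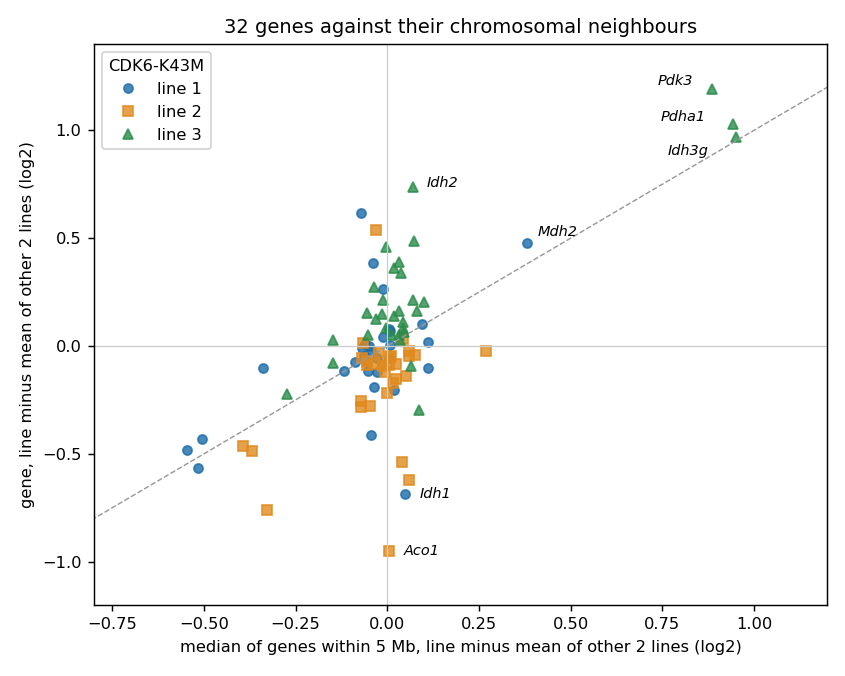
Difference on the log2 scale between a line and the average of the other 2 lines, for 32 genes (vertical axis) against the median of the same difference over other genes that start within 5 Mb (horizontal axis), with 3 symbols per gene, 1 for each line, and a dashed line of equality. *Pdha1*, *Pdk3* and *Idh3g* in line 3 and *Mdh2* in line 1 lie far from 0 on both axes, and *Aco1*, *Idh2* and *Idh1* on the vertical axis alone.

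NRF-1, a factor known to drive nuclear genes of mitochondrial respiration, is one the study examined at promoters that CDK6 binds. Of the 34 genes, 31 had a RefSeq promoter window, and *Idh3a*, *Me2* and *Pdp1* did not. The letters GCGCA, then any base, then GCGC, searched on both strands for NRF-1, occurred in 2 of the 31, *Dld* and *Sucla2*, against 11.9% of the 9738 genes with a window that were also among the genes tested and 5.19% of all 27025 genes with a window. GGGCGG occurred in 22 of 31 (71.0%), against 67.6% of the genes tested. CCAAT occurred in 20 of 31 (64.5%), against 43.3%. The 31 include *Pdk2* and *Pdk4*, which are not among the genes tested, and the windows of both hold CCAAT. CCGGAAGT, the letters searched for ETS factors, occurred in 1 of 31, *Dlst*, against 9.53%. These are matches of letters in short windows and say nothing on binding. The windows with the NRF-1 letters are shown because the study examined this factor, with all matches in capitals, *Dld* on the minus and *Sucla2* on the plus strand. Neither gene was among those with a large range between lines, with 0.06 for *Dld* and 0.12 for *Sucla2*.
Dld, chr12:31351422-31351721: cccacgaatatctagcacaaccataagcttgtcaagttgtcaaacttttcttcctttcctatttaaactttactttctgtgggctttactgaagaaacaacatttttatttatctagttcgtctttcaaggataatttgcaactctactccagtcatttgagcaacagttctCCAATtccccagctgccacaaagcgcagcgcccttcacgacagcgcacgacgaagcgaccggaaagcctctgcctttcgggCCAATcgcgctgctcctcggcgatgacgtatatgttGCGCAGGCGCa
Sucla2, chr14:73552536-73552835: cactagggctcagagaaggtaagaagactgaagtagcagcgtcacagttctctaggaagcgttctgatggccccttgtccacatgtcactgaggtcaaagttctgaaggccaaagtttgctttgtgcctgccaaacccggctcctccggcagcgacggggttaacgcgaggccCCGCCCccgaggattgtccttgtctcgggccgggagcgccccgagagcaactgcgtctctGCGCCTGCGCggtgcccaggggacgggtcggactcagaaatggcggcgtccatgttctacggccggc

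Other genes of pyruvate, glutamine and acetyl-CoA metabolism were read from a list of 28 that are not in the set. Of these, 22 had enough counts, 19 differed between lines beyond counting noise, against the 66.8% of all genes and the 81.2% of the better covered ones, and 1 had a range of at least 1, against 10.9% of all genes. This was *Acss2*, the cytosolic and nuclear acetyl-CoA synthetase, with 2.81, 4.56 and 6.63 CPM in lines 1, 2 and 3. The highest per kilobase was *Ldha*, the lactate dehydrogenase subunit that favours lactate, with 1552, 1430 and 1553 CPM and 457 ± 21.5 CPM per kilobase, more than any of the 34 genes, though 16.6% of its 50-base stretches also occur in other annotated genes. *Slc16a1*, a transporter of lactate and pyruvate, followed with 121 ± 14.7 and *Slc1a5*, a glutamine transporter, with 104 ± 5.39 CPM per kilobase (SD, n = 3 each). *Ldhb* and *Slc25a13* had 0 counts in every line, so the mitochondrial aspartate-glutamate carrier was represented by *Slc25a12* with 175, 126 and 159 CPM. *Ldhb* shares 27.0% of its 50-base stretches with another annotated gene and *Slc25a13* none. Line 3 was the highest line for 9 of these 22 genes, against 37.0% of all genes tested. The median difference of line 3 from the others was 0.00068 on the log2 scale, against 0.0038 for all genes and 0.15 for the pathway genes. This contrast of lists was not tested.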

How the data were processed

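Poly(A) RNA of 3 CDK6-K43M lines was sequenced. The authors removed adaptors (Trimmomatic), mapped reads to mm10 (STAR) and summed those on Gencode M13 exons (featureCounts); the deposited values are unnormalized counts, 1 column per line. The strand setting and the handling of reads with several matches are not given in the sources used here. For the kit, labels (SENSE, 50 bases, single-end) and methods (TruSeq) differ. The 6 other columns of the table are samples of another series and were not used.

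Identifiers were matched to Gencode M21 (same assembly) without their version, which gave symbols for 50462 of 50686 genes; for 5 of the 34 genes the version differed. A sum of 10 counts or more over the 3 lines left 13974 genes (the study set this minimum over the samples of each of its comparisons), which were scaled by TMM (edgeR 4.0.16, R 4.3.3). Pathway levels were compared per kilobase of merged exons. Each gene was tested for equal counts in the lines by chi-square against scaled library sizes, with Benjamini-Hochberg adjustment over all genes kept at 0.05. The test measures these libraries only, since 1 group gives no contrast. A range of at least 1 in log2(CPM + 1) was the rule for size. No 2 libraries agreed within counting noise, with 6099 or more genes differing in each pair. Neighbours were genes kept whose log2(CPM + 1) averaged 2 or more and that start within 5 Mb. For each gene the transcript with the longest CDS was taken, and its stretches of 50 bases were searched in all other annotated transcripts. The statistics were tested on simulated counts. Python 3.11.15, numpy 2.4.6, pandas 2.3.3 and scipy 1.17.1 were used.

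All 34 genes are named. Of the other pathway genes, those with a range of at least 1 and the 3 highest per kilobase are named by rule, and *Ldhb*, *Slc25a12* and *Slc25a13* after their values were seen. The gene set, the lists and the tests were chosen with earlier results of these data known. Other settings were size factors from DESeq2 1.42.0, scaling to library size, no minimum, a minimum of 10 in each line, a pseudocount of 0.1 CPM, transcript length and leaving out each line, and, chosen after seeing the data, leaving out the X-linked genes.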

Additional observations from a re-analysis of the deposited data

How the results depend on the processing

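No paired analysis was possible because all lines share 1 genotype. Of 18 summary values under other scalings, filters, pseudocount, length or without the X-linked genes, 14 stayed close to the value reported, which means within 1.5 times for a count of genes and within 1 SD between lines for a level or share. With the length of the transcript that has the longest coding sequence, the median level of the 34 genes was 70.3 CPM per kilobase, against 34.2. Without the X-linked genes, which was chosen after seeing the data, 1 gene and not 3 had a range of at least 1, the share of counts was 0.588%, against 0.660%, and the summed level 5882 CPM, against 6602 CPM; these follow from removing genes. Leaving out each line in turn, the number of genes that differed between lines ranged from 14 (without line 3) to 26, against 28, and fewer libraries also give the test less power. The number with a range of at least 1 ranged from 1 (without line 1 or line 3) to 2, the median level from 31.4 to 35.7 CPM per kilobase, the share of counts from 0.629% to 0.686% and the summed level from 6285 to 6864 CPM. Calls of single genes changed in 23 of 96 fits without a line and in 5 of 128 fits with another scaling or filter. The latter were *Dlst*, called without a minimum and with a minimum of 10 in each line, *Sucla2*, lost without a minimum, and *Fh1* and *Mdh1*, lost with library size alone. The cause was not tested. Depth limits *Pdk2* and *Pdk4*, at or under a few counts.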
